A study of Homo sapiens with 26 samples.

Results

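The adrenergic core regulatory transcription factors PHOX2A, HAND1, HAND2, GATA2, GATA3, ISL1, TBX2 and TFAP2B were followed across every RNA sequencing library of the series. Members were chosen by gene symbol, and the 8 rows were found among the 26485 genes of both the cell culture and the xenograft table. All 8 passed the filter on low counts in both tables, with between 1001 (TBX2) and 28001 (GATA2) expected counts per library in culture and between 544 (TBX2) and 16469 (HAND2) in xenografts.

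The libraries came from KELLY, a MYCN-amplified neuroblastoma cell line of human origin. Cells carried a lentiviral vector for doxycycline-inducible expression of one of the hairpin RNAs sh4 and shAMB, both directed against RUNX1T1, or the empty vector (EV, labelled F1HUTG). Each of these 3 lines was sampled at 72 h, with 3 replicates given doxycycline and 3 given DMSO, the solvent. Subcutaneous KELLY tumors, which the labels call PDX, from NOD SCID gamma mice given control food (labelled control, n = 4) or doxycycline food (labelled RUNX1T1 KO, n = 4) formed the second set. Per the paper, the tumor cells carried the first of the study's hairpins, which was based on an Ambion siRNA, although no label of the tumors names it. Per its methods, the mice were females engrafted at several weeks of age. No label ties replicates to separate cultures, so p-values measure the spread between these samples, which may be technical. Culture columns carry the words Neg or Pos in place of a treatment. Neg was taken to mean DMSO and Pos doxycycline on the wording only, so every direction reported for culture depends on that step.

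Neuroblastoma arises from the sympathetic nervous lineage, and most of its cells hold a noradrenergic, or adrenergic, identity. That identity is kept by a small circuit of transcription factors that bind each other's enhancers as well as their own, so that each helps to sustain the others. The alternative identity is mesenchymal, with a different set of regulators. PHOX2A is a paired-type homeodomain factor that activates genes for noradrenaline synthesis. HAND1 and HAND2 are related basic helix-loop-helix factors that pair with E proteins and bind E-box motifs, and HAND2 is needed for sympathetic neuron development. GATA2 and GATA3 are zinc finger factors that recognise GATA motifs, ISL1 is a LIM-homeodomain factor that works through the adaptor LDB1, TBX2 is a T-box factor best known as a repressor, and TFAP2B is an AP-2 factor of neural crest derivatives.

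On GRCh38 the GENCODE loci were chr5:154474972-154478227 (HAND1), chr4:173524969-173530229 (HAND2), chr5:51383448-51394730 (ISL1), chr6:50818723-50847619 (TFAP2B), chr3:128479427-128493201 (GATA2), chr10:8045378-8075198 (GATA3), chr11:72239077-72245664 (PHOX2A) and chr17:61399843-61409466 (TBX2). The members stood at different levels in the control cells. Per kilobase of the deposited gene length, HAND1 stood highest in EV cells with DMSO at 153 ± 3.18 CPM (CPM, the count relative to a library total adjusted by the trimmed mean of M values, SD, n = 3). HAND2 followed at 142 ± 4.08, GATA2 at 113 ± 12.7 and ISL1 at 64.4 ± 1.80 CPM per kilobase. TFAP2B (37.9 ± 0.223), GATA3 (37.3 ± 1.65) and PHOX2A (33.0 ± 7.12) came next, and TBX2 was lowest at 12.3 ± 3.27. The ranges of TFAP2B and GATA3 overlapped, as did those of GATA3 and PHOX2A, so these neighbours did not differ beyond their spread. In control xenografts the order was HAND2 (108 ± 12.9), GATA2 (55.2 ± 7.25), HAND1 (32.6 ± 0.736), TFAP2B (28.0 ± 2.30), ISL1 (23.3 ± 2.88), PHOX2A (19.3 ± 2.77), GATA3 (11.0 ± 2.69) and TBX2 (6.71 ± 2.15 CPM per kilobase, n = 4). There TFAP2B overlapped with ISL1, ISL1 with PHOX2A and GATA3 with TBX2. HAND1 thus ranked first in EV cells with DMSO, while its level over that of HAND2 was 0.981 to 0.995 in sh4 and 0.898 to 1.00 in shAMB with DMSO, and in the tumors it stood below HAND2 and GATA2. The tables were scaled separately, and no test was made between them.

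The promoters of the related pair HAND1 and HAND2, and of ISL1, are shown because HAND1 and HAND2 responded differently to the hairpins while ISL1 rose in both lines and in the tumors. The 250 bases before the RefSeq start site (GRCh38.p14) are given 5′ to 3′ on the strand of the gene. Capitals mark E-box motifs (CANNTG, the same on both strands) and GATA motifs (GATAA, or TTATC for the other strand), and no capital stretch overlaps another.
HAND1, chr5:154478228-154478477, minus strand: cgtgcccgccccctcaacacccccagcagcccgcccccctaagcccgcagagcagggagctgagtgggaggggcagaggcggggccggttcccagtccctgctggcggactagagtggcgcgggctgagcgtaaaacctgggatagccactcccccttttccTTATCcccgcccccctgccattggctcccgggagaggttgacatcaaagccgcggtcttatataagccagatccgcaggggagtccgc
HAND2, chr4:173530230-173530479, minus strand: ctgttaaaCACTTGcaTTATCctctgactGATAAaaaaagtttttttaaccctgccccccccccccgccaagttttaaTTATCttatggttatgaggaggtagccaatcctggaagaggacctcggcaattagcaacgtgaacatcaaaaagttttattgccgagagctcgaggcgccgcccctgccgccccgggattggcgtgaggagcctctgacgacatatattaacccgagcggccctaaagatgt
ISL1, chr5:51383198-51383447, plus strand: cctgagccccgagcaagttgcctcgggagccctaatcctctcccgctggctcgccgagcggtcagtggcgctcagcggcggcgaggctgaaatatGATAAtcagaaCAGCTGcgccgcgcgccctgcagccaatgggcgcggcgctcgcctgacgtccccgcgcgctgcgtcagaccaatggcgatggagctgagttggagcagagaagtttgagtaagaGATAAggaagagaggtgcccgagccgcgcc
HAND2 held 1 E-box and 3 GATA motifs, ISL1 1 and 2, and HAND1 0 and 1. Over the 35116 promoter windows of this length, 61.8% held an E-box and 20.4% a GATA motif. RefSeq entries were found for 7 members, with TBX2 unmatched. A match is a description of letters and not a measured binding site.

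Total expected counts ran from 35115915 to 54736733 in culture and from 47346063 to 62378060 in xenografts. RUNX1T1, the hairpin target, did not pass the threshold between treatments in sh4 (log2 fold change −0.11, edgeR adjusted p 0.114), shAMB (0.06, adjusted p 0.373) or the xenografts (−0.23, adjusted p 0.225), so groups are named by their labels only. These are RNA values. The paper reports decreased RUNX1T1 levels in KELLY cells with both of its hairpins under doxycycline. By immunostaining it also reports loss of RUNX1T1 protein in KELLY tumors after knockdown. The effect on RUNX1T1 RNA in shAMB was above that in EV (difference 0.21, edgeR adjusted p 0.0338), a call kept under 8 of 20 alternatives. In EV itself the change was −0.16 (adjusted p 0.679). With DMSO RUNX1T1 was already lower in sh4 than in EV (−0.29, adjusted p 0.0132). MYCN, an oncogene of neuroblastoma, rose on the log2 scale in sh4 (0.68, edgeR adjusted p 4.8e-06), shAMB (1.57, adjusted p 1.9e-10) and the xenografts (1.46, adjusted p 1.5e-05). All 8 markers of adrenergic neuroblastoma examined (TH, DBH, DDC, CHGA, CHGB, STMN2, ALK and MYCN) had a mean of at least 1 CPM in every group. Of 5 leukocyte markers, ITGAM stayed under 0.1 CPM in every library. The summed level of the list was 1.10 to 1.25 CPM with DMSO and 0.681 to 1.23 CPM with doxycycline in sh4, 0.616 to 0.776 CPM and, all above these, up to 2.22 CPM in shAMB, and 1.15 to 1.58 CPM in control against 1.79 to 2.67 CPM in RUNX1T1 KO xenografts. The summed level of 6 fibroblast markers was 78.0 to 103 CPM with DMSO and 90.5 to 131 CPM with doxycycline in sh4, 71.8 to 85.9 and 83.1 to 102 CPM in shAMB, and 48.5 to 82.0 CPM in control against 74.9 to 116 CPM in RUNX1T1 KO xenografts. That of 5 endothelial markers was 2.69 to 3.19 and 4.77 to 6.82 CPM in sh4, 2.22 to 2.63 and 5.53 to 7.94 CPM in shAMB, and 8.69 to 14.6 and 10.8 to 15.7 CPM in the xenografts. That of 5 Schwann cell markers was 4.33 to 4.70 and 5.51 to 6.38 CPM in sh4, 4.20 to 4.55 and 5.05 to 5.96 CPM in shAMB, and 6.06 to 9.20 and 3.79 to 4.34 CPM in the xenografts. The endothelial and Schwann cell sums thus lay higher with doxycycline in both hairpin lines without overlap, the leukocyte sum lay higher in shAMB with doxycycline and in the KO tumors without overlap, the Schwann cell sum lay lower in the KO tumors, and the fibroblast ranges overlapped. The part of these lists in the results was not tested. Culture libraries came from a single cell line, so the sums there are RNA levels of that line and not counts of other cell types. The tumors grew in mice while reads were assigned to the human build hg38, so the sums do not count host cells as such. In bulk tumors fewer cells of a type and less RNA per cell cannot be told apart. The median log2 fold change over all genes shifted by 0.16 in sh4 and 0.17 in shAMB when the deposited TPM values were tested in place of counts. The share of called genes that were higher then moved from 56.1% to 80.4% in sh4, from 56.8% to 72.9% in shAMB and from 51.6% to 71.7% in the xenografts, where upper quartile scaling gave 63.2%.

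To ask which factors respond to hairpin induction, doxycycline was compared with DMSO within each line. Of the 8 members, 5 passed the threshold in sh4 (4 higher and 1 lower), where 40.8% of all 14905 genes tested did. In shAMB 6 passed (4 higher and 2 lower), against 66.0% of all genes. In EV, which carries no hairpin, 0 of 8 passed by edgeR against 0.0939% of all genes, and 1 (GATA3) had an unadjusted p under 0.05. DESeq2 and limma also called 0 of 8 in EV. Counts over 8 genes say little against such backgrounds, and the values of single factors follow by role. The median log2 fold change of the members was 0.14 in sh4 and 0.14 in shAMB, beside −0.00 and 0.10 over all genes.

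**Figure D1:**
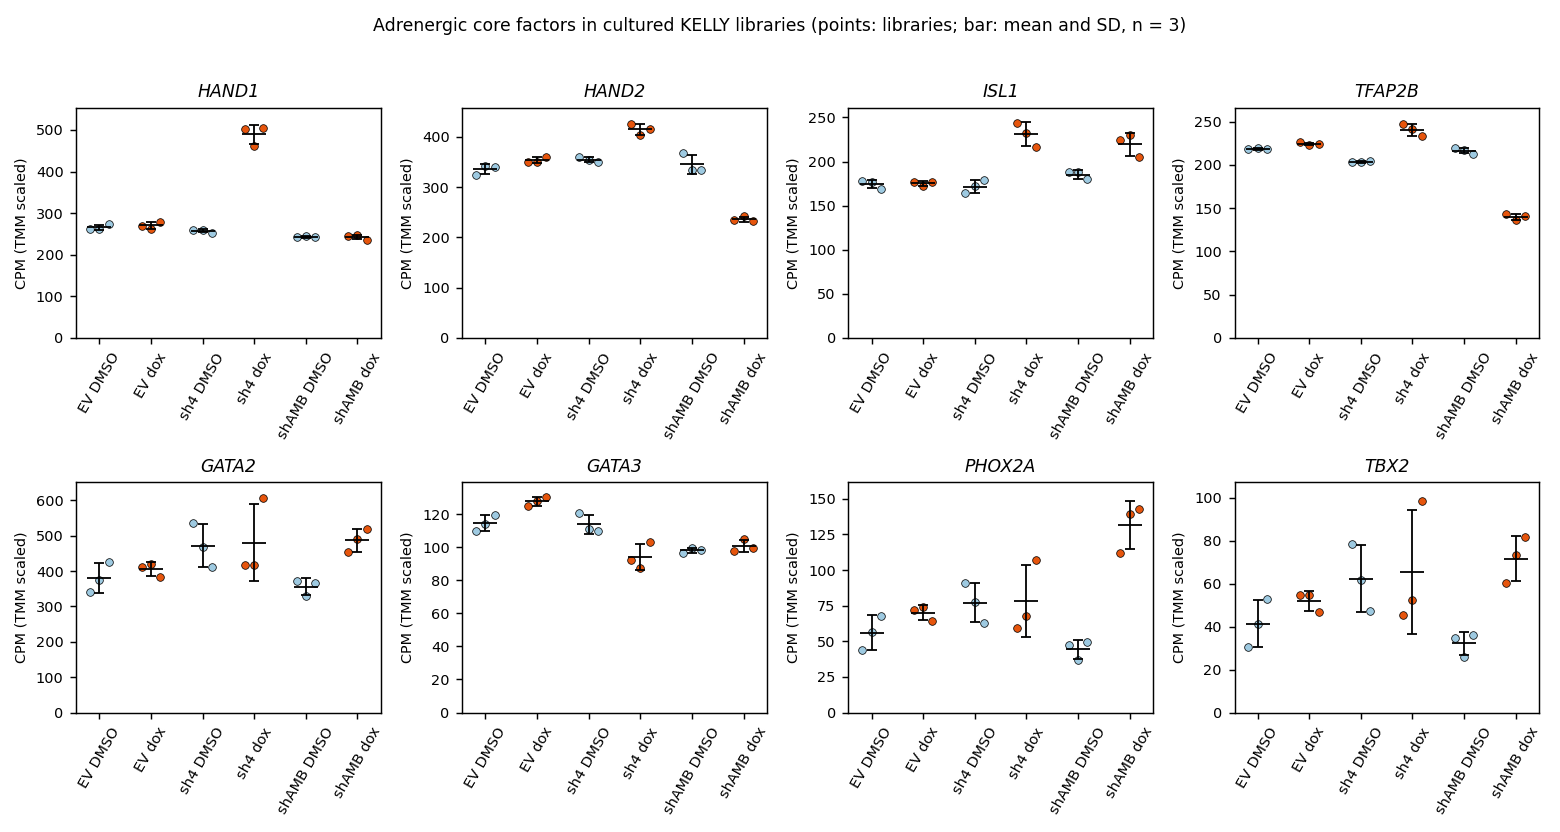
Expression of the 8 factors in the 18 cell culture libraries. Each point is 1 library in CPM, bars give the mean and SD of 3 replicates, blue is DMSO and orange doxycycline (dox). HAND1 separates with doxycycline in sh4 alone, HAND2 and TFAP2B are higher in sh4 and lower in shAMB, and PHOX2A, TBX2 and GATA2 scatter widely within groups.

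HAND1 was the member with the largest change in sh4. Its level was 502, 462 and 504 CPM with doxycycline and 260.2, 259 and 253 CPM with DMSO (log2 fold change 0.93, SE 0.0403, edgeR adjusted p 1.0e-10). The groups lay far apart. In shAMB the values were 244, 247 and 236 CPM with doxycycline and 242, 246 and 242 CPM with DMSO, which overlapped. The fitted change there was −0.01 (adjusted p 0.848, 95% confidence interval −0.09 to 0.08), but its direction depended on the scale, being 0.17 with TPM (limma adjusted p 0.00123) and −0.40 once trends over GC content and gene length were removed (edgeR adjusted p 0.0237). EV gave 269.6, 262 and 279.8 CPM against 263, 263 and 273 CPM, again overlapping. The sh4 effect exceeded that in EV by 0.91 (SE 0.0567, adjusted p 1.9e-08) and that in shAMB by 0.94 (SE 0.0567, adjusted p 2.7e-09).

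HAND2, whose product is a close relative of HAND1, moved in opposite directions with the hairpins. In sh4 it was at 426, 403 and 416 CPM with doxycycline and 360.2, 354 and 351 CPM with DMSO (log2 fold change 0.23, SE 0.0420, edgeR adjusted p 4.6e-04). In shAMB it was at 235, 242 and 232 CPM with doxycycline and 368, 335 and 334 CPM with DMSO (−0.55, SE 0.0422, adjusted p 2.0e-08). Neither pair of groups overlapped. In EV, too, the 3 doxycycline libraries (351, 351 and 361 CPM) lay above those with DMSO (325, 342 and 341 CPM), by 0.08 (adjusted p 0.679). The small rise in sh4 did not pass the threshold against EV (difference 0.15, adjusted p 0.0673), although it did by DESeq2 (0.16, adjusted p 0.0348) and with TPM (0.36, limma adjusted p 3.7e-04). The fall in shAMB differed from EV by −0.62 (adjusted p 6.1e-07) and the effect in sh4 exceeded that in shAMB by 0.77 (adjusted p 3.8e-08).

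HAND2 shares its locus with HAND2-AS1, a non-coding gene on the other strand whose exons overlap 24.1% of the HAND2 exon bases. The library kit keeps strand, but whether counting used it is not given in the sources used here, so reads of the 2 genes may not be told apart and the level of HAND2 is uncertain to that extent. HAND2-AS1 was at 13.3, 13.5 and 11.9 CPM with doxycycline and 31.2, 35.4 and 32.5 CPM with DMSO in shAMB (log2 fold change −1.36, SE 0.0835, edgeR adjusted p 1.5e-09). In sh4 it was at 28.4, 26.6 and 23.4 CPM against 26.7, 29.4 and 27.8 CPM (−0.10, adjusted p 0.363). The antisense gene therefore fell together with HAND2 in shAMB, and its groups overlapped in sh4 where HAND2 was higher. The level of HAND1 over that of HAND2, per gene length, was 1.60 ± 0.0425 with doxycycline and 0.987 ± 0.00726 with DMSO in sh4, and 1.39 ± 0.0155 and 0.963 ± 0.0567 in shAMB (SD, n = 3 each). EV stayed at 1.04 ± 0.0204 and 1.08 ± 0.0290. The ratio was thus higher with doxycycline in both hairpin lines, with HAND1 higher in sh4 and HAND2 lower in shAMB.

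ISL1 was higher with doxycycline in both hairpin lines. In sh4 the libraries stood at 244, 232 and 217 CPM with doxycycline and 164, 172 and 179 CPM with DMSO (log2 fold change 0.43, SE 0.0517, edgeR adjusted p 6.7e-06). In shAMB they stood at 224, 230.2 and 205 CPM against 188, 188 and 179.9 CPM (0.25, SE 0.0517, adjusted p 5.8e-04). No doxycycline library of a hairpin line fell within its DMSO range, and EV gave 177, 172 and 177 CPM against 178, 177 and 169 CPM (0.00, adjusted p 0.996). Both effects exceeded that in EV, by 0.43 in sh4 (adjusted p 3.7e-04) and 0.25 in shAMB (adjusted p 0.0118). The latter fell short with DESeq2 (0.20, adjusted p 0.0652), with RLE factors (0.20, adjusted p 0.0747) and without a filter on low counts (0.20, adjusted p 0.0773). Between the hairpins ISL1 differed by 0.18 (adjusted p 0.0406), which did not pass without any 1 of 7 libraries (adjusted p up to 0.109 without the third doxycycline replicate of shAMB) and under 5 other settings, among them trends removed (0.05, adjusted p 0.280).

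TFAP2B was the member with the smallest spread within culture groups and had opposite signs in the hairpin lines. It was at 247, 242 and 233 CPM with doxycycline and 203, 203 and 205 CPM with DMSO in sh4 (log2 fold change 0.24, SE 0.0329, edgeR adjusted p 2.3e-05). In shAMB it was at 143, 136 and 141 CPM against 219, 217 and 213 CPM (−0.63, SE 0.0331, adjusted p 2.6e-10). Neither pair overlapped. EV had 226, 223 and 224 CPM against 218, 220.1 and 218 CPM, which also did not overlap but differed by only 0.04 (adjusted p 0.679). The effects differed from EV by 0.20 in sh4 (adjusted p 0.00348, and 0.0555 without a filter on low counts) and by −0.67 in shAMB (adjusted p 2.1e-08). Their difference from each other was 0.87 (SE 0.0467, adjusted p 7.8e-10).

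GATA3 was lower with doxycycline in sh4, at 92.2, 87.4 and 103 CPM against 120.5, 111 and 109.8 CPM with DMSO (log2 fold change −0.27, SE 0.0570, edgeR adjusted p 0.00124). These groups did not overlap, but the call was lost with TPM (−0.10, limma adjusted p 0.165) and when only the sh4 libraries were fitted (−0.27, adjusted p 0.0502). In EV it leaned the other way, with 125, 128 and 130.1 CPM against 109.7, 114 and 119.7 CPM and no overlap (0.16, adjusted p 0.679). The sh4 effect was below that in EV by −0.43 (SE 0.0806, adjusted p 8.1e-04). In shAMB the values overlapped at 97.9, 105 and 99.7 CPM against 96.3, 99.4 and 98.3 CPM (0.04, adjusted p 0.559), and the direction depended on the scale, with 0.22 in TPM (limma adjusted p 0.00290) and −0.20 with trends removed (edgeR adjusted p 0.00109). The antisense gene GATA3-AS1 rose by a log2 fold change of 0.33 in sh4 (adjusted p 0.00662) and 0.60 in shAMB (adjusted p 2.1e-05). Against EV its rise passed in shAMB (difference 0.57, edgeR adjusted p 0.00141) and not in sh4 (0.30, adjusted p 0.0773).

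PHOX2A showed the largest change of any member in shAMB. It was at 112, 139 and 143 CPM with doxycycline and 47.4, 36.9 and 49.2 CPM with DMSO (log2 fold change 1.56, SE 0.212, edgeR adjusted p 1.2e-05), with no overlap. In sh4 the libraries ran through each other, at 59.4, 67.9 and 107 CPM against 90.7, 77.6 and 63.1 CPM (0.02, SE 0.206, adjusted p 0.956). EV gave 71.9, 74.1 and 64.5 CPM against 43.6, 56.6 and 67.8 CPM, which overlapped (0.33, adjusted p 0.679). The shAMB effect exceeded that in EV by 1.23 (SE 0.295, adjusted p 0.00315) and that in sh4 by a difference of −1.54 taken as sh4 minus shAMB (SE 0.294, adjusted p 4.1e-04).

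TBX2 rose in shAMB from 34.6, 26.0 and 36.0 CPM to 60.4, 73.3 and 81.6 CPM (log2 fold change 1.16, SE 0.271, edgeR adjusted p 0.00163). In sh4 it ranged from 45.3 to 98.5 CPM with doxycycline and from 47.1 to 78.6 CPM with DMSO, so that 1 group enclosed the other (0.06, SE 0.265, adjusted p 0.866). EV also overlapped, with 54.7, 54.9 and 46.8 CPM against 30.5, 41.1 and 52.7 CPM (0.33, adjusted p 0.679). The shAMB effect did not pass the threshold against EV (difference 0.82, SE 0.380, adjusted p 0.0915) and passed against sh4 (−1.09 as sh4 minus shAMB, adjusted p 0.0213). The neighbouring TBX2-AS1 also rose in shAMB (0.71, SE 0.176, adjusted p 0.00217), but this did not pass against EV (difference 0.30, edgeR adjusted p 0.340).

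GATA2 was also higher in shAMB as counted. It was at 453, 489.6 and 519 CPM with doxycycline and 372, 329 and 367 CPM with DMSO, without overlap (log2 fold change 0.45, SE 0.132, edgeR adjusted p 0.00719). In sh4 the values were 418, 417 and 606 CPM against 535, 469 and 412 CPM (0.02, SE 0.131, adjusted p 0.899), and in EV 411, 421 and 384 CPM against 341, 376 and 426 CPM (0.09, adjusted p 0.756), both with overlap. The direction in shAMB turned to −0.22 (adjusted p 0.00223) when trends over GC content and length were removed. The shAMB effect did not pass against EV (0.36, adjusted p 0.125), nor the difference between hairpins (−0.43 as sh4 minus shAMB, adjusted p 0.0581).

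**Figure D2:**
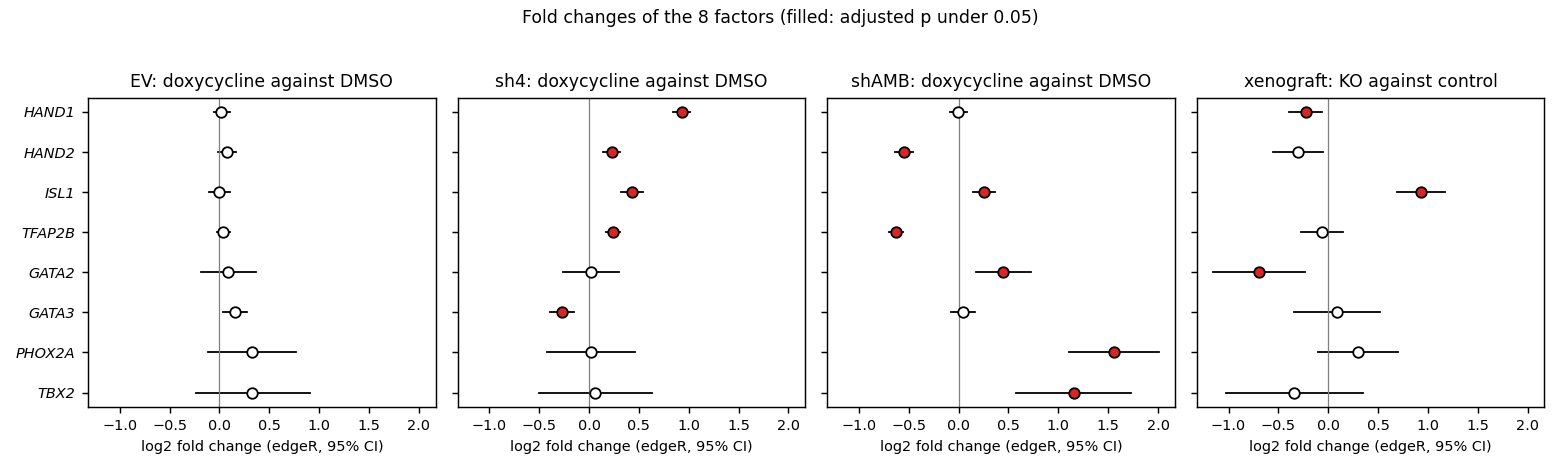
Log2 fold changes of the 8 factors by edgeR, with 95% confidence intervals, for doxycycline against DMSO in EV, sh4 and shAMB and for RUNX1T1 KO against control xenografts. Filled points passed an adjusted p of 0.05. ISL1 is filled and positive in sh4, shAMB and the xenografts, and no point is filled in EV.

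When effects were compared between lines, 4 of 8 members differed between sh4 and EV (3 higher and 1 lower in sh4), where 32.4% of all genes did. Between shAMB and EV 4 of 8 differed (2 higher and 2 lower in shAMB), against 45.2% of all genes, and between sh4 and shAMB 7 of 8 (4 higher and 3 lower in sh4), against 60.7%. GATA2 was the exception in the last comparison, and sh4 and shAMB were both set against the same EV libraries. Before induction, with DMSO, 0 of 8 members differed between sh4 and EV (4 with an unadjusted p under 0.05) and 0 of 8 between shAMB and EV (2 with an unadjusted p under 0.05), where 1.14% and 1.51% of all genes did. DESeq2 called 0 and 1 of 8, the latter GATA3, with a log2 fold change of −0.21 (DESeq2 adjusted p 0.0123). By edgeR this value was −0.22 (adjusted p 0.0671). In the sh4 line with DMSO, PHOX2A (0.47, adjusted p 0.176), TBX2 (0.60, adjusted p 0.177) and GATA2 (0.31, adjusted p 0.170) were the members with the largest values, each short of the threshold.

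PHOX2A, TBX2 and GATA2 shared a property that no rule of selection had used. Their transcripts were the most GC-rich of the 8, with 66.5%, 61.4% and 60.4% G and C, compared with 58.5% for HAND2, 57.3% for HAND1, 53.7% for GATA3, 48.4% for TFAP2B and 45.4% for ISL1. They also had the largest spread between culture replicates, with a pooled SD within groups of 0.278 for PHOX2A, 0.356 for TBX2 and 0.174 for GATA2 on the log2 scale. The SD of the other 5 members lay between 0.0250 (TFAP2B) and 0.0683 (GATA3).

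The spread of these 3 genes moved with the GC slope of a library, which is the slope over 12443 genes of the log2 deviation from the group mean on GC content. The third doxycycline replicate of sh4 had the highest slope in culture, 0.26 log2 units per 10 percentage points of GC. In that library PHOX2A stood 0.50, TBX2 0.67 and GATA2 0.36 log2 units above the group mean. The first doxycycline replicate of sh4 had the lowest slope, −0.17, with PHOX2A at −0.35, TBX2 at −0.44 and GATA2 at −0.18. In each of the 6 culture groups the library of highest slope was also the highest for PHOX2A and TBX2, and it was so in 5 groups for GATA2. ISL1 was lowest in that library in 6 of 6 groups and TFAP2B in 5. HAND1, HAND2 and GATA3, with intermediate GC content, were highest there in 3, 1 and 3 groups and lowest in 2, 2 and 0. GATA3, although less GC-rich than the HAND genes, deviated with PHOX2A (r 0.736) and GATA2 (r 0.808) over the 18 libraries, which share group means. In culture the members thus did not order by GC content alone. Over the 8 xenografts GATA3 deviated the other way from PHOX2A (r −0.523) and GATA2 (r −0.403).

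**Figure D3:**
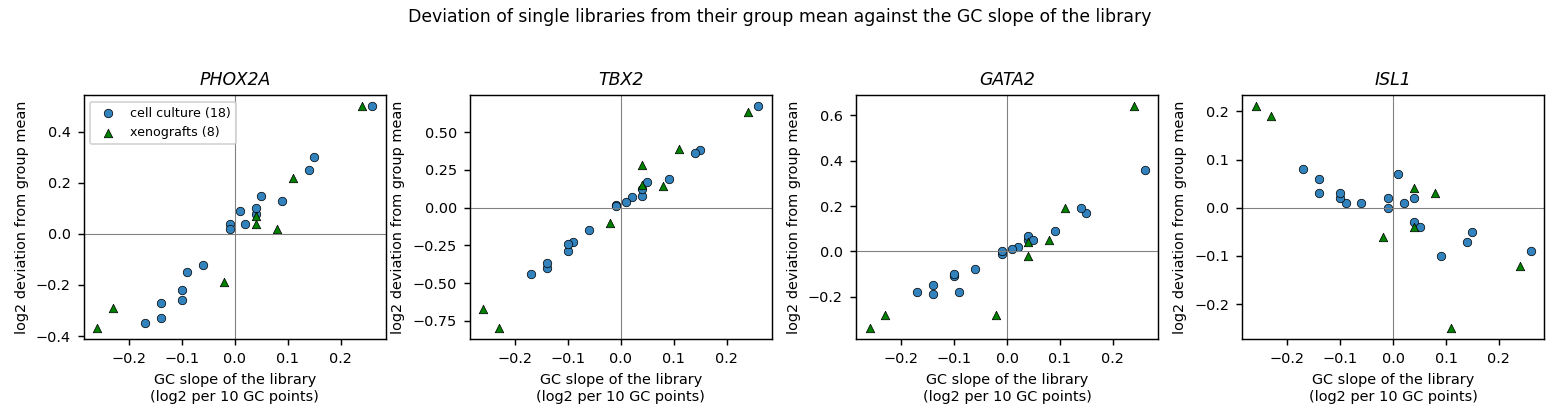
Log2 deviation of PHOX2A, TBX2, GATA2 and ISL1 from the group mean against the GC slope of the library (log2 units per 10 percentage points of GC) for 18 culture (circles) and 8 xenograft (triangles) libraries. The first 3 genes rise with the slope, and ISL1 lies lower at high slopes.

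Between treatments the log2 fold changes of all genes had a GC slope of 0.39 per 10 percentage points in shAMB, −0.15 in sh4, 0.14 in EV and 0.05 in the xenografts. The fit was repeated with trends over GC content and length removed from each library, a setting chosen after the data were seen. PHOX2A and TBX2 still rose in shAMB, to 0.63 on the log2 scale (SE 0.0820, edgeR adjusted p 6.8e-06) and 0.42 (SE 0.0797, adjusted p 2.0e-04), less than as counted. In sh4 both now passed the threshold, at 0.46 (adjusted p 1.9e-04) and 0.25 (adjusted p 0.0103), as did GATA2 at 0.22 (adjusted p 0.00304), so that all 8 members were called there, where 55.1% of all genes then were. The SE of PHOX2A in sh4 went from 0.206 to 0.0804 and that of TBX2 from 0.265 to 0.0764, while that of HAND1 went the other way, from 0.0403 to 0.142. With trends removed the difference between the hairpins no longer passed for PHOX2A (−0.17, adjusted p 0.217) or TBX2 (−0.17, adjusted p 0.192). Whether the slope reflects library preparation or the RNA of the cells was not tested. HAND1 (1.14, adjusted p 1.4e-05) and ISL1 (0.39, adjusted p 3.0e-10) in sh4, ISL1 in shAMB (0.34, adjusted p 1.1e-09) and HAND2 (−1.07, adjusted p 4.6e-05) and TFAP2B (−0.69, adjusted p 2.2e-16) in shAMB kept their calls and directions.

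**Figure D4:**
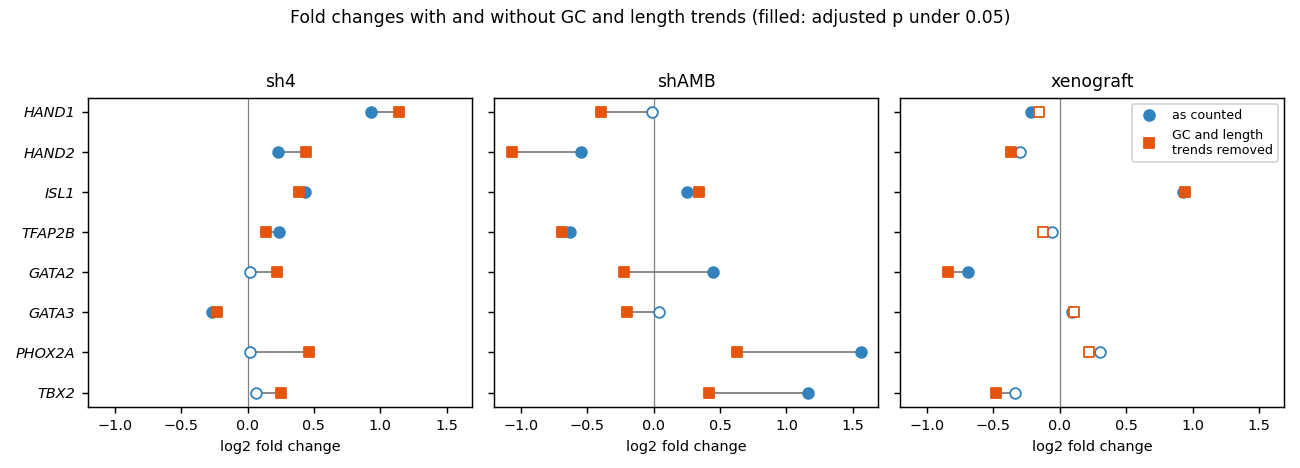
Log2 fold changes of the 8 factors as counted (circles) and with GC content and length trends removed (squares) in sh4, shAMB and the xenografts; filled symbols passed an adjusted p of 0.05. PHOX2A and TBX2 move furthest in shAMB, GATA2 crosses zero there, and ISL1 hardly moves in any panel.

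The xenografts were compared to ask how the factors stand in tumors of mice given doxycycline. The series holds no tumors of empty vector cells, so doxycycline food and hairpin induction cannot be told apart here as they can in culture. The labels give no time of sampling for the tumors. Of 8 members, 3 passed the threshold (ISL1 higher, GATA2 and HAND1 lower in the tumors labelled RUNX1T1 KO), and 40.9% of all 15960 genes tested did. The median log2 fold change of the members was −0.14, beside 0.02 over all genes.

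ISL1 was at 111, 115, 117 and 139 CPM in RUNX1T1 KO tumors and 71.6, 64.1, 52.7 and 64.6 CPM in control tumors (log2 fold change 0.93, SE 0.111, edgeR adjusted p 9.2e-05). All 4 KO tumors were above all 4 controls, and the call was kept under each of 15 alternatives. Within the KO group the library of highest GC slope (0.24, replicate 1) had the lowest ISL1 and that of lowest slope (−0.26, replicate 4) the highest. With trends removed the value was 0.94 (adjusted p 2.0e-06).

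HAND1 was slightly lower, at 49.8, 46.3, 49.3 and 48.7 CPM against 57.2, 55.3, 58.2 and 55.9 CPM (log2 fold change −0.22, SE 0.0743, edgeR adjusted p 0.0322). The groups did not overlap and the libraries were tight, but the call was lost under 8 of 15 alternatives. Upper quartile scaling gave −0.12 (adjusted p 0.155), and it was also lost without control replicate 3 (−0.22, adjusted p 0.0904) or 4 (−0.24, adjusted p 0.0687) and without KO replicate 2 (−0.20, adjusted p 0.110) or 4 (−0.23, adjusted p 0.0615). HAND2 was at 236, 208, 208 and 177 CPM against 263, 209.8, 271 and 275 CPM, with overlap (−0.30, adjusted p 0.0565). HAND2 passed under 5 of 15 alternatives. Among them were DESeq2 (−0.30, adjusted p 0.0467), the fit without control replicate 2 (−0.39, adjusted p 0.0134) and that without KO replicate 1 (−0.37, adjusted p 0.0193). HAND2-AS1 fell from between 21.0 and 26.2 CPM in controls to between 10.4 and 16.0 CPM in KO tumors (−0.86, SE 0.149, adjusted p 9.6e-04), with no overlap. That call was kept under 14 of 15 alternatives. The ratio of HAND1 to HAND2 per length was 0.322 ± 0.0378 in KO and 0.306 ± 0.0366 in control tumors (SD, n = 4 each), so the shift seen in the hairpin lines was not visible here.

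GATA2 was at 173, 90.9, 109 and 87.4 CPM in KO and 152, 191, 211 and 190.3 CPM in control tumors (log2 fold change −0.69, SE 0.207, edgeR adjusted p 0.0220). KO replicate 1, which had the highest GC slope, lay within the control range and the other 3 KO tumors lay below it. The fall was −0.84 with trends removed (adjusted p 3.5e-05) and was lost with TPM (−0.70, limma adjusted p 0.173), without control replicate 3 (−0.63, adjusted p 0.0587) and without KO replicate 2 (−0.60, adjusted p 0.0642). GATA2-AS1 also fell (−0.71, adjusted p 0.0261), having risen in shAMB (0.25, adjusted p 0.0265). Its rise in shAMB did not pass against EV (difference 0.22, edgeR adjusted p 0.218). GATA2 was therefore lower in the tumors where it had been higher in shAMB as counted, and the difference between these settings was not tested. The other 4 members did not pass and their groups overlapped. PHOX2A was at 30.2 to 55.6 CPM in KO and 26.6 to 38.0 CPM in control tumors (0.30, adjusted p 0.216), and TBX2 at 10.5 to 26.6 and 12.2 to 28.5 CPM (−0.34, adjusted p 0.412). GATA3 was at 36.0 ± 8.24 and 33.8 ± 8.27 CPM (SD, n = 4 each; 0.09, edgeR adjusted p 0.740), and TFAP2B at 139.5 to 170.3 and 147 to 173 CPM (−0.06, adjusted p 0.656). TBX2 passed with trends removed (−0.48, adjusted p 0.0103).

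**Figure D5:**
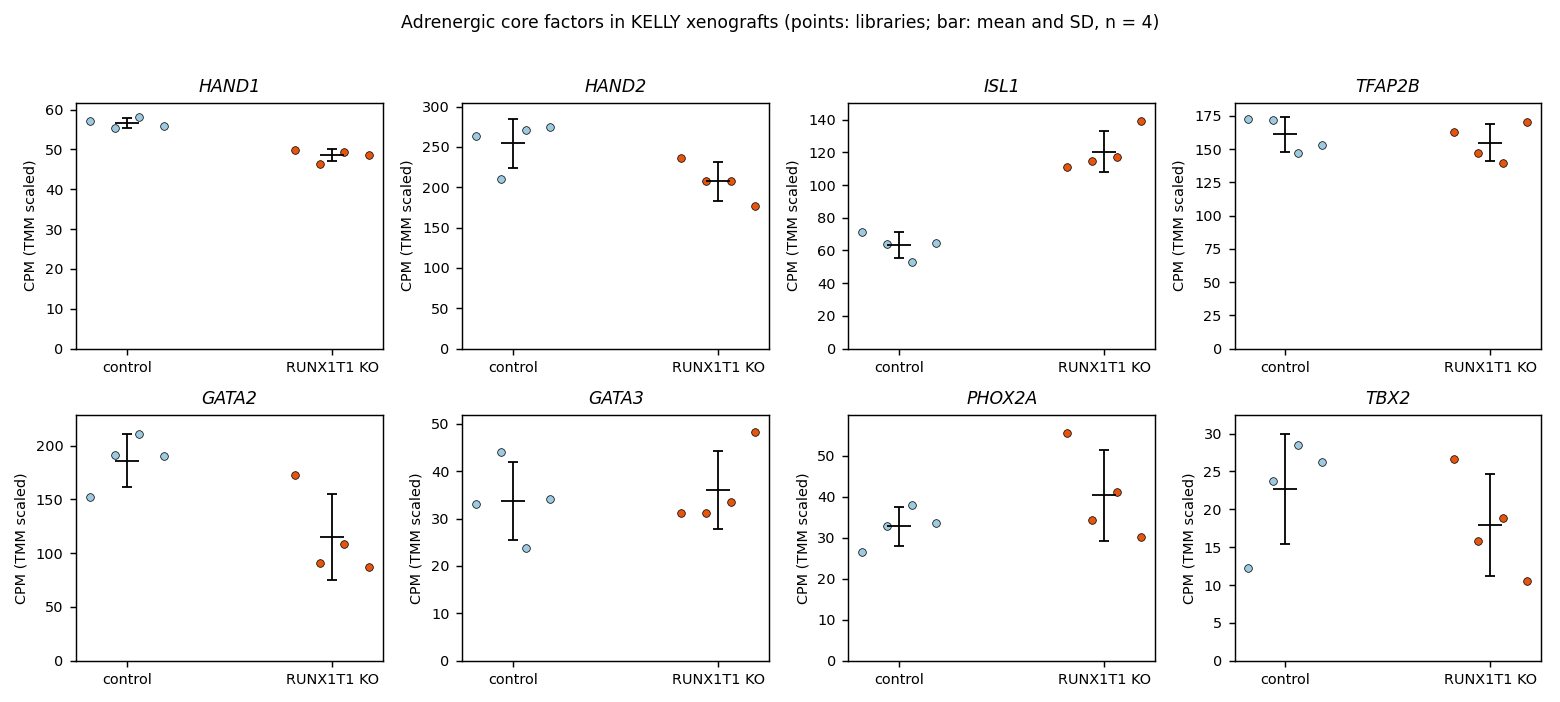
Expression of the 8 factors in 4 control (blue) and 4 RUNX1T1 KO (orange) xenografts, in CPM, with mean and SD. ISL1 and HAND1 do not overlap between groups, and 3 of 4 KO tumors lie below every control for GATA2.

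The factors were then set beside other genes of the same circuits, in lists described by counts and medians. For every list the background was the share of all genes called, 40.8% for sh4, 66.0% for shAMB and 40.9% for the xenografts, beside medians over all genes of −0.00, 0.10 and 0.02 on the log2 scale. Genes are named where they were among the 3 of largest change in their list, with any call of opposite direction elsewhere. List values are as counted, and how far the GC slope of each comparison bears on them was not tested. The lists overlap, with genes such as TBX3, LMO3 and PRRX1 in several of them, so their counts are not independent. Of 24 other adrenergic regulators tested, 9 were higher and 8 lower in sh4 (median log2 fold change −0.03), 15 higher and 6 lower in shAMB (0.49) and 9 higher and 3 lower in the xenografts (0.27). LMO3, a LIM-only cofactor known for its role in neuroblastoma, fell in sh4 (−1.33, SE 0.0905, adjusted p 1.3e-08), shAMB (−2.03, SE 0.0930, adjusted p 5.2e-11) and the xenografts (−1.50, SE 0.167, adjusted p 6.5e-05). INSM1, a zinc finger regulator of neuroendocrine cells, rose in sh4 (0.69, adjusted p 4.2e-04) and the xenografts (1.02, adjusted p 6.6e-04). TBX3, the closest relative of TBX2, rose in shAMB (1.10, SE 0.0390, adjusted p 2.9e-12) and the xenografts (0.99, SE 0.0907, adjusted p 2.1e-05) but fell in sh4 (−0.23, adjusted p 2.0e-04). EBF3 rose in shAMB (1.13, adjusted p 2.0e-11), and KLF13 fell in sh4 (−0.63, adjusted p 1.5e-05).

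Among 14 protein partners, 13 were tested, of which 3 were higher and 5 lower in sh4 (median log2 fold change −0.22), 7 higher and 4 lower in shAMB (0.22) and 4 higher and 5 lower in the xenografts (0.05). LMO2, which bridges GATA factors and basic helix-loop-helix factors through LDB1, rose in sh4 (0.57, SE 0.198, edgeR adjusted p 0.0302), shAMB (1.57, SE 0.170, adjusted p 9.0e-07) and the xenografts (1.68, SE 0.259, adjusted p 4.7e-04), opposite in sign to LMO3. The LMO2 rise in sh4 did not pass against EV (difference 0.41, edgeR adjusted p 0.304). With DMSO LMO2 was already higher in shAMB than in EV (1.73, adjusted p 1.8e-04). SSBP2, which stabilises LDB1, fell in sh4 (−0.53, adjusted p 3.3e-05) and the xenografts (−1.06, adjusted p 8.7e-06). ZFPM2, a partner of GATA factors, fell in shAMB (−1.11, adjusted p 3.5e-10).

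Of 24 listed relatives from the same protein families, 13 were tested in culture and 12 in the xenografts. Of these, 3 were higher and 4 lower in sh4 (median log2 fold change 0.03), 6 higher and 4 lower in shAMB (0.57) and 5 higher and 2 lower in the xenografts (0.53). GATA6 (−1.30, edgeR adjusted p 5.7e-05) and TWIST1 (−0.82, adjusted p 1.8e-08) fell in shAMB, LHX9 (−0.93, adjusted p 2.0e-05) and TBX18 (−0.34, adjusted p 0.0324) fell in sh4, and TBX4 rose in the xenografts (1.30, adjusted p 0.00127). PRRX1, a homeodomain factor of the mesenchymal identity, rose in sh4 (1.16, SE 0.142, adjusted p 8.0e-06) and fell in shAMB (−0.53, adjusted p 0.00452) and the xenografts (−0.90, SE 0.292, adjusted p 0.0298).

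The noradrenergic genes, which include targets of PHOX2A and the HAND factors, had 2 of 13 higher and 9 lower in sh4 (median log2 fold change −0.27), 3 higher and 6 lower in shAMB (−0.07) and 3 higher and 4 lower in the xenografts (−0.41). TH, the rate-limiting enzyme of catecholamine synthesis, fell in sh4 (−1.40, SE 0.390, edgeR adjusted p 0.00953) and rose in shAMB (2.39, SE 0.394, adjusted p 8.1e-05). DDC (−0.71, adjusted p 1.3e-08) and QDPR (−0.79, adjusted p 3.7e-10), which act in the synthesis of catecholamines and in recycling the cofactor of TH, fell in sh4. MAOA, which breaks amines down, fell in shAMB (−1.72, adjusted p 1.6e-12) and the xenografts (−1.01, adjusted p 1.0e-04), and SLC18A1, a vesicular amine transporter, fell in shAMB (−1.23, adjusted p 2.6e-10). In the xenografts CHGB, a granule protein, rose (1.10, adjusted p 1.3e-04) and CYB561, an electron carrier of granules, fell (−1.03, adjusted p 0.00174). In sh4 their directions were the opposite, with CHGB lower (−0.10, adjusted p 0.0233) and CYB561 higher (0.61, adjusted p 6.8e-06).

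The mesenchymal regulators had 7 of 13 tested higher and 1 lower in sh4 (median log2 fold change 0.37), 6 higher and 5 lower in shAMB (0.44), and 1 of 15 higher and 2 lower in the xenografts (0.06). Beside PRRX1, SNAI2 (1.11, edgeR adjusted p 6.6e-05) and YAP1 (0.99, adjusted p 4.0e-07) rose in sh4, YAP1 falling in shAMB (−0.39, adjusted p 0.00142), while FOSL2 (1.30, adjusted p 4.4e-07), SOX9 (1.20, adjusted p 3.8e-11) and ID1 (1.07, adjusted p 2.5e-08) rose in shAMB. In the xenografts SOX9 rose (0.45, adjusted p 0.0360) and TWIST1 fell (−0.45, adjusted p 0.00275). Of 7 antisense and divergent neighbours listed, 4 were tested, of which 1 was higher and 0 lower in sh4 (median −0.15), 3 higher and 1 lower in shAMB (0.43) and 1 higher (GATA3-AS1, 0.68, adjusted p 0.00515) and 2 lower in the xenografts (−0.62).

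For each member the 2 genes whose log2 CPM followed it most closely over the 18 culture libraries were listed, as a description of libraries that share treatment and depth. PHOX2A was closest to THY1 (Pearson r 0.991) and PIGO (0.989), TBX2 to VAV2 (0.989) and NDOR1 (0.989), and GATA2 to CIC (0.985) and RXRA (0.983). HAND1 was closest to CCNE1 (0.984) and FBXO21 (0.980), HAND2 to NELFCD (0.988) and SHMT1 (0.987), and ISL1 to RCN1 (0.985) and PTPN12 (0.983). TFAP2B was closest to SNHG16 (0.990) and CALD1 (0.990), and GATA3 to LINC00682 (0.955) and PRR13 (0.927). No other member was among these genes. In the 8 xenografts the likeness held for some pairs, such as ISL1 with RCN1 (0.879) and HAND2 with NELFCD (0.841), and not for others, such as TBX2 with VAV2 (0.0136) and GATA3 with PRR13 (−0.680).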

How the data were processed

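The authors deposited RSEM expected counts (estimated counts that need not be whole, 91.8% whole in culture and 91.0% in xenografts) and TPM (relative transcript abundance, which takes gene length into account) in tables of 26485 genes for 18 culture and 8 xenograft libraries. The deposited culture count table also gives a gene length in bases. The submitters' processing notes name STAR, SAMtools, RSEM and hg38. The annotation is not given in the sources used here. The labels give a stranded kit for total RNA but polyA RNA as the molecule, and it is not known which applies. Groups came from the sample labels, and every column was used. No replicate pair agreed within sampling noise (chi-square per degree of freedom 1.82 or more).

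Expected counts were rounded and fitted with edgeR 4.0.16 in R 4.3.3 (filterByExpr, 14905 and 15960 genes, TMM, robust glmQLFit and two-sided glmQLFTest, one mean per group), p-values being adjusted by Benjamini-Hochberg across the genes tested, with a threshold of 0.05. The 18 culture libraries shared 1 fit. CPM used TMM-adjusted totals. Loci, GC content and promoters came from GENCODE and RefSeq on GRCh38, and 92.7% of genes had a GC value. Alternatives were RLE and upper quartile factors, no filter, DESeq2 1.42.0, limma 3.58.1 on log2(TPM + 0.1), whose fold changes understate low genes, a replicate block, only the groups compared, and leaving out each replicate. Removal of trends over GC content and length was added after the data were seen.

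The members, the lists and the comparisons were chosen with earlier results of these data known. Named were all 8 members in 9 comparisons, from each list up to 3 called genes of largest log2 fold change with a mean of at least 1 CPM in the sh4, shAMB and xenograft comparisons, RUNX1T1 and MYCN as checks, and for each member the 2 genes of highest Pearson correlation of log2 CPM over the culture libraries. Antisense neighbours of members were named also by their locus. The labels name no molecular identifiers, so errors are those between replicates.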

Additional observations from a re-analysis of the deposited data

Results flagged for a closer look

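In the xenografts labelled RUNX1T1 KO, GATA3 stood at 31.2, 31.1, 33.4 and 48.2 CPM, and replicate 4 lay far from the other 3 (gap over range 0.868, above the critical value of 0.829 for 4 samples). The same library had the lowest GC slope of the group. In 16 groups tested in this way, chance flags about 1 in 20.

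The doxycycline effect differed between lines by the interaction test for 7 of the members, whose values, on the log2 scale, follow. Of all genes, 32.4% differed between sh4 and EV, 45.2% between shAMB and EV and 60.7% between the hairpins. Between sh4 and EV the differences were 0.91 for HAND1, 0.43 for ISL1, 0.20 for TFAP2B and −0.43 for GATA3. Between shAMB and EV they were 1.23 for PHOX2A, 0.25 for ISL1, −0.62 for HAND2 and −0.67 for TFAP2B. Between sh4 and shAMB they were 0.94 for HAND1, 0.87 for TFAP2B, 0.77 for HAND2, 0.18 for ISL1, −0.31 for GATA3, −1.09 for TBX2 and −1.54 for PHOX2A. With GC content and length trends removed, 4 of the differences between the hairpins were no longer called, those of PHOX2A (−0.17), TBX2 (−0.17), GATA3 (−0.03) and ISL1 (0.05).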

How the results depend on the processing

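Removal of GC content and length trends moved the counts of members called to 8 in sh4 (55.1% of all genes), 4 between the hairpins (65.3%), 2 (GATA3 and TFAP2B) for sh4 against EV with DMSO (5.67%) and 1 (GATA3) for shAMB against EV with DMSO (6.12%), where DESeq2 also gave 1 (1.97%). It reversed GATA2 (−0.22) and GATA3 (−0.20) in shAMB, PHOX2A (0.44) and GATA2 (0.36) between sh4 and EV, and GATA2 (0.44) between the hairpins, where GATA3 was lost (−0.03, adjusted p 0.740). Between shAMB and EV 7 members were called with TPM (51.4% of all genes) and 7 with only the groups compared (51.8%). TPM left 1 in the xenografts (13.4%) and reversed HAND1 in shAMB (0.17) and between shAMB and EV (0.19). Leaving out single libraries gave 1 to 4 members in the xenografts, with 1 (ISL1) without control replicate 3 or KO replicate 2, and 5 to 8 between the hairpins, where TBX2 was lost without sh4 DMSO replicate 1 (−0.88, adjusted p 0.0543), sh4 doxycycline replicate 2 (−0.95, 0.0558), shAMB DMSO replicate 2 (−0.96, 0.0577) or shAMB doxycycline replicate 3 (−0.99, 0.0513). Without sh4 doxycycline replicate 3, PHOX2A passed between sh4 and EV (−0.60, adjusted p 0.0441). The cause of these changes was not tested. Replicates with the same number did not deviate together (correlations of −0.603 to 0.374), so the replicate block was not treated as a pairing. With the replicate block HAND1 in the xenografts fell short (−0.22, adjusted p 0.118), and no other member changed its call. Over all genes, calls went in EV from 14 to 66 (trends removed) or 6 (only the groups compared), in sh4 from 6077 to 3671 (only the groups compared), between sh4 and EV from 4835 to 7550 without sh4 doxycycline replicate 3, and in the xenografts from 6531 to 2141 (TPM). With DMSO the counts of 170 for sh4 against EV and 225 for shAMB against EV became 845 and 912 with trends removed, 23 and 85 with only the groups compared, and 349 for sh4 by DESeq2, and leaving out single libraries gave as few as 76 and 123. Depth did not limit the members, all of which had at least 544 counts in every library.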
